A study of Mus musculus with 24 samples.

Results

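Complement is a cascade of plasma proteins and cell receptors, and 9 of its genes were followed here across 12 RNA sequencing libraries of cells sorted from mouse liver. They are C1qa, C1qb, C1qc and C4b of the classical pathway, C3, the component on which the pathways meet, Cfb and Cfp of the alternative pathway, and the anaphylatoxin receptors C3ar1 and C5ar1. They were chosen by symbol, through the Ensembl identifier of each row, with earlier results of these data known. They are 9 of the 45792 genes in the deposited values. All 9 had a row, and 8 of 9 passed the filter on low values (a mean log2 value of at least 4) and were tested. Cfb did not, and its values are given without a test.

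The cells came from female C57BL/6 mice kept for 2 weeks on a diet lacking methionine and choline, which is used as a model of nonalcoholic steatohepatitis. The animals were injected intravenously with liposomes labelled with DiI, a lipophilic membrane dye, and 24 hours later CD11c+ MHC class II+ liver cells were sorted by their DiI signal. The 4 groups of 3 libraries were DiI-positive cells after curcumin liposomes (curcumin is a plant polyphenol), DiI-positive cells after empty liposomes, DiI-negative cells after curcumin liposomes and DiI-negative cells after empty liposomes. The diet and the injected, dye-labelled liposomes were thus shared by all groups, and no group fed a normal diet or left without liposomes was analysed here. The sources used here do not state whether a group's libraries were made from different mice or pooled cells, so p-values reflect spread between libraries that could be technical. Values are the authors' log2 expression values, on which a difference of 1 is read here as a doubling. The transform behind them is not stated, and folds, above all those of low genes, depend on it.

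C1q is the recognition molecule of the classical pathway; each molecule is assembled from chains encoded by C1qa, C1qb and C1qc, and when bound to a target it starts the cleavage of C4 and C2. The resulting enzyme cleaves C3, whose fragments mark the target for uptake or, as C3a and with C5a from C5, signal through C3ar1 and C5ar1. The alternative pathway amplifies C3 cleavage with factor B (Cfb) and is stabilised by properdin (Cfp). Hepatocytes make most circulating complement, whereas C1q and properdin come mainly from myeloid cells, with macrophages and dendritic cells being a known source of C1q.

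The C1q genes lie side by side. On GRCm38 all 3 are on the minus strand of chromosome 4, C1qb at chr4:136880129-136886187, C1qc at chr4:136889804-136893065 and C1qa at chr4:136895917-136898803, with gaps of 3616 and 2851 bases between them and 18675 bases from end to end. C3 is at chr17:57203970-57228136, also on the minus strand. Sequence upstream of C1qb, C1qc and C3 is shown because the C1q genes moved together between the sorted fractions and C3 did not move with them. The sequences are RefSeq's for GRCm38.p6, read 5′ to 3′ on the gene's strand from within the 250 bases before RefSeq's start, and only bases outside annotated exons are printed. Capitals mark GAGGAA on either strand, the core letters bound by the myeloid factor PU.1, and in C3 the letters TTGCNNAA, bound by C/EBP factors.
C1qb (chr4:136886201-136886450, minus strand): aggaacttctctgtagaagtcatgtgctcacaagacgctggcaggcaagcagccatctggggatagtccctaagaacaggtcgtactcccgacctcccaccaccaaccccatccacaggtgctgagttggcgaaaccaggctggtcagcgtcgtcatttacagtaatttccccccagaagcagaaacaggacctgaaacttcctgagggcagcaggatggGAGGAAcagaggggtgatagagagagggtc
C1qc (chr4:136893066-136893164, minus strand): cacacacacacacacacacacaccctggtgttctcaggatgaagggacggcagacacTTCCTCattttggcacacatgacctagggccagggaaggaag
C3 (chr17:57228137-57228386, minus strand): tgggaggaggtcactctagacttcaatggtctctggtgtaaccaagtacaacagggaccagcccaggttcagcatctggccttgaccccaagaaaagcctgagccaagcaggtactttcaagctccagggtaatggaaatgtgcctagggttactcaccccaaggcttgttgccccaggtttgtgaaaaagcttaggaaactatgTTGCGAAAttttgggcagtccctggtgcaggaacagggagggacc
On the minus strand a gene begins at its higher coordinate. RefSeq's start is that coordinate, as given above, for C3 but not for the C1q genes: it lies 13 bases upstream of it in C1qb and 151 bases inside the gene in C1qc. In C1qb the match is on the gene's strand, 43 to 38 bases upstream of the coordinate given above. In C1qc it is on the other strand, so that the printed strand reads TTCCTC, 42 to 37 bases upstream of that coordinate. In C3 the match is on the gene's strand, 45 to 38 bases upstream. The 250 bases of these genes and of Cfp, C3ar1 and C5ar1 were searched on both strands for these motifs. The Maf half-site TGCTGAC, the core of the interferon-stimulated response element (GAAA, any 2 bases, then GAAA again) and the kappaB consensus were searched as well. The only further match was 1 to the kappaB consensus in C1qc, which lies in an annotated exon and is not shown. Such letters are common, as 23.3% of 32841 promoters of the same length held GAGGAA and 9.57% held TTGCNNAA. The Maf half-site was in 3.81%, the interferon-stimulated core in 2.98% and the kappaB consensus in 7.25%. A match describes the letters and does not show binding. C1qa, Cfb and C4b were not in the sequence table.

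Some values of the whole series touch these genes. The labels call the cells dendritic cells. All 7 markers of type 1 and all 6 of type 2 conventional dendritic cells passed the filter, as did all 10 of Kupffer cells, all 6 of macrophages, all 6 of monocytes, all 8 of B cells and 7 of 8 of hepatocytes, while 0 of 5 of stellate cells did. No listed marker was at 0 in every library. A few libraries stood apart. Curcumin DiI-negative replicate 3 had the lowest summed macrophage markers (16.99 on the log2 scale) and the highest summed type 1 dendritic cell markers (15.67). Curcumin DiI-positive replicate 3 had the highest type 1 dendritic cell sum of the DiI-positive libraries (15.17), and empty DiI-positive replicate 1 their lowest Kupffer cell sum (15.83). Plasmacytoid dendritic cell sums were 12.16 and 12.30 in the DiI-positive and DiI-negative curcumin replicate 3 libraries, against 9.03 to 10.44 in the others. Curcumin DiI-positive replicate 3 also had the highest sinusoidal endothelial sum (13.58) and the lowest B cell sum of the DiI-positive libraries (16.46). In bulk samples such as these, fewer cells of a type and less RNA per cell cannot be told apart.

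The 9 genes spanned a wide range of levels. On the log2 scale after dividing by exon length in kilobases, and averaged over the 12 libraries, C1qb stood highest at 14.13, ranking 25 of 14157 genes with a length. It was followed by Cfp at 12.98, C1qc at 12.35 and C1qa at 11.54 (ranks 83, 148 and 298). The receptor C5ar1 (10.55), C3 (10.32) and C3ar1 (9.58) came next, with ranks of 686, 841 and 1533. C4b stood at 6.39, a rank of 8187, and Cfb was lowest at 2.01. Each shares sequence with another gene, as given below, so these levels are uncertain. The order holds for these averages only: C3 stood above C5ar1 per kilobase in both DiI-negative groups, at 10.50 against 10.20 after curcumin and 10.77 against 10.66 after empty liposomes.

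**Figure D1:**
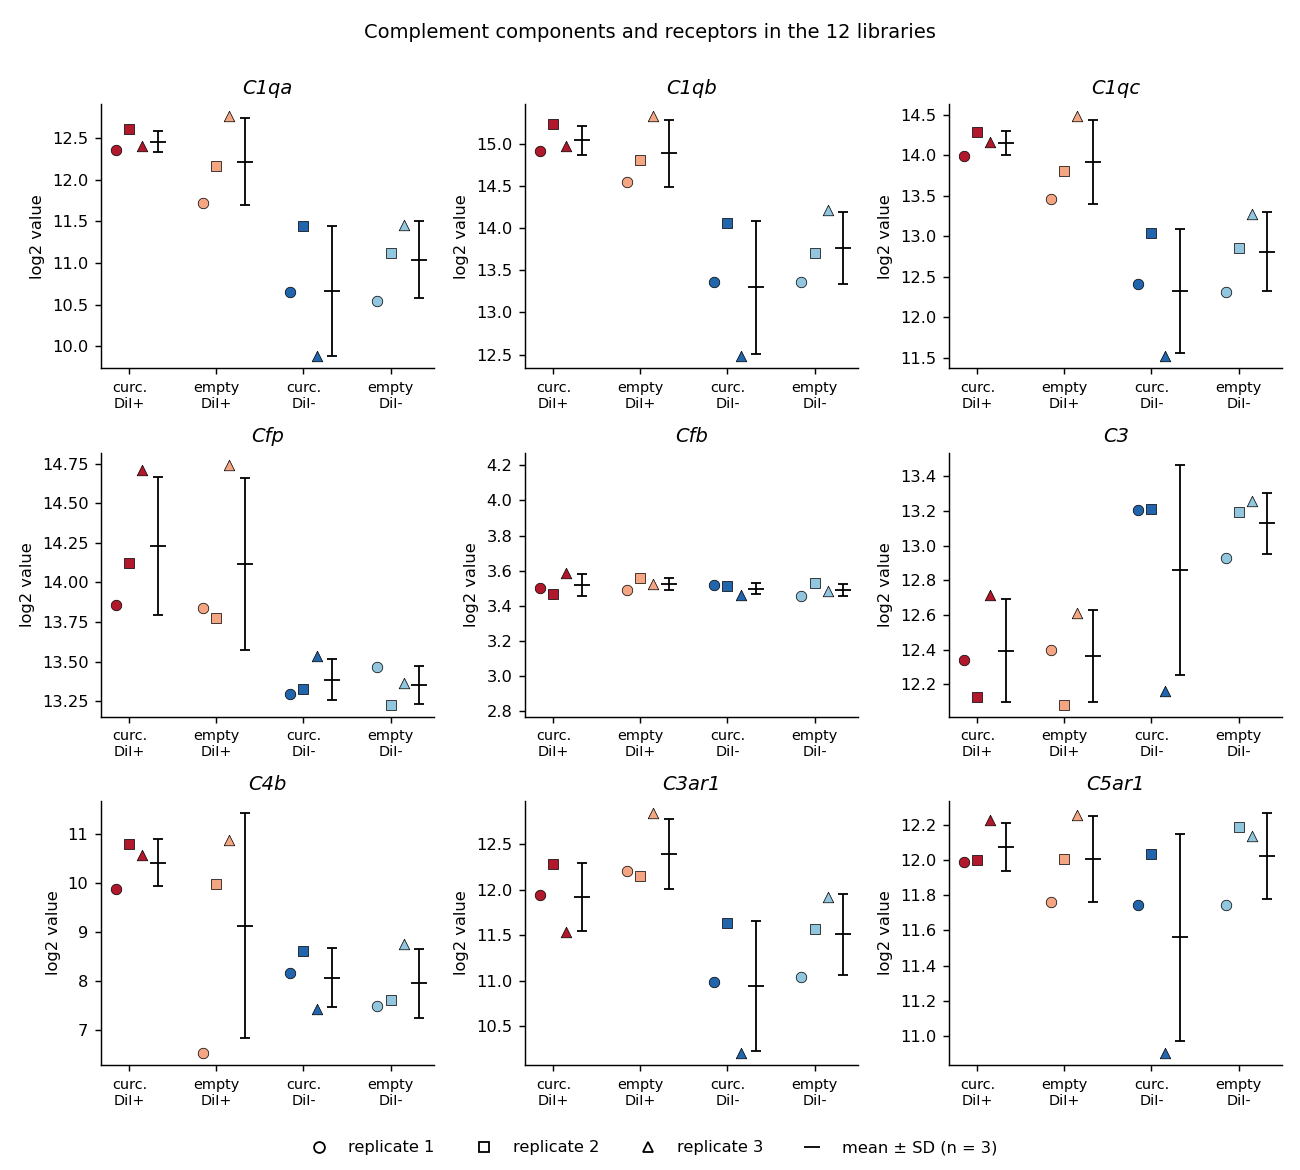
Deposited log2 values of the 9 complement genes in each library, with the group mean ± SD (n = 3) beside the points; columns are curcumin DiI-positive, empty DiI-positive, curcumin DiI-negative and empty DiI-negative, and symbols are replicates. The C1q genes and Cfp are higher in all 6 DiI-positive libraries than in any DiI-negative one, C4b is at 6.54 in empty DiI-positive replicate 1, and Cfb stays between 3.46 and 3.59.

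Setting DiI-positive against DiI-negative cells separates those carrying the liposome dye from those of the same sort without it. Of the 8 genes tested, 5 (C1qa, C1qb, C1qc, Cfp and C3ar1) rose in DiI-positive cells in the comparison averaged over both liposomes and 0 fell, where 5.54% of the 14227 genes tested rose and 6.56% fell. The tests were limma's, with Benjamini-Hochberg adjustment over all genes and a threshold of 0.05. Because the genes were chosen with earlier results of these data known, the shares of all genes are a background and not an independent test. After curcumin liposomes 3 of 8, the C1q genes, rose, against 1.41% of all genes, and after empty liposomes 0 of 8 passed, against 2.95% in either direction. At an unadjusted limma p under 0.05, 6 of the 8 stood out after empty liposomes, as did 17.9% of all genes. The median difference of the 8 was 1.18 averaged, 1.36 after curcumin and 0.99 after empty liposomes, beside medians of 0.01, 0.00 and 0.00 over all genes tested. All 6 DiI-positive libraries lay above all 6 DiI-negative ones for 4 of the 8, as they did for 2.52% of all genes. After empty liposomes 5 of the 8 were higher and 1 lower without overlap, shares of all genes being 12.3% and 14.5%, and after curcumin 5 were higher, against 9.88%.

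The 3 C1q genes were higher in DiI-positive cells and moved as a unit. C1qa, the A chain, had 12.36, 12.61 and 12.41 in curcumin DiI-positive libraries and 11.72, 12.16 and 12.76 in empty DiI-positive libraries. It had 10.65, 11.44 and 9.88 in curcumin DiI-negative libraries and 10.54, 11.13 and 11.46 in empty DiI-negative libraries. The DiI-positive and DiI-negative libraries did not overlap, and curcumin DiI-negative replicate 3 was the lowest of all. C1qb, the B chain, had 14.91, 15.23 and 14.97 in curcumin DiI-positive and 14.54, 14.80 and 15.32 in empty DiI-positive libraries. Its DiI-negative values were 13.36, 14.05 and 12.48 after curcumin and 13.37, 13.70 and 14.22 after empty liposomes. Again no DiI-negative library reached a DiI-positive one. C1qc, the C chain, averaged 14.15 ± 0.15 in curcumin DiI-positive, 13.91 ± 0.52 in empty DiI-positive, 12.33 ± 0.77 in curcumin DiI-negative and 12.81 ± 0.48 in empty DiI-negative libraries (SD, n = 3 each), likewise without overlap between the fractions.

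Averaged over both liposomes, the difference between DiI-positive and DiI-negative cells was 1.49 ± 0.26 for C1qa (log2 ± SE, 2.80-fold, limma adjusted p = 0.0042). For C1qb it was 1.43 ± 0.24 (2.70-fold, limma adjusted p = 0.0037) and for C1qc 1.46 ± 0.26 (2.75-fold, limma adjusted p = 0.0044). After curcumin liposomes alone the differences were 1.799 ± 0.37, 1.74 ± 0.34 and 1.82 ± 0.36 for C1qa, C1qb and C1qc, with limma adjusted p of 0.025, 0.023 and 0.024. After empty liposomes they were 1.17 ± 0.37, 1.13 ± 0.34 and 1.10 ± 0.36 and did not pass (limma adjusted p = 0.12, 0.11 and 0.13). In both fractions after empty liposomes, each of these genes rose from replicate 1 to replicate 3. After curcumin liposomes the order of replicates differed between the fractions. The fit did not pair libraries by number, so its SE includes any spread that the fractions share. Whether numbers mark shared mice is not stated. The averaged difference passed without each of the 12 libraries in turn, with adjusted p of at most 0.014 for each gene. The calls after curcumin did not hold up as well. All 3 were lost without curcumin DiI-positive replicate 1 (adjusted p from 0.051 to 0.056), curcumin DiI-positive replicate 2 (0.086 to 0.091) or curcumin DiI-negative replicate 1 (0.079 to 0.090), and when only the 6 libraries compared were fitted (0.095 to 0.11). Without curcumin DiI-negative replicate 3, C1qa (0.069) and C1qc (0.060) no longer passed, and without both curcumin replicate 3 libraries, an alternative chosen after seeing the data, C1qa (0.063) and C1qc (0.060) again did not pass.

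Within a library the C1q transcripts kept nearly fixed proportions. The level of C1qb exceeded that of C1qa by 2.65 ± 0.10 and that of C1qc by 0.95 ± 0.08, and C1qc exceeded C1qa by 1.71 ± 0.07 (log2, SD over n = 12 libraries, without correction for length). The full ranges of these differences were 2.55 to 2.83, 0.81 to 1.09 and 1.60 to 1.81, while each gene itself spanned more than 2.8 on the same scale. For every member, likeness was sought among protein-coding genes tested, without immunoglobulin or T cell receptor segments, mitochondrial genome genes, or numbered and accession-like names. Among these, the 2 most like each C1q gene over the 12 libraries were the other C1q genes, with Pearson r from 0.994 to 0.997. The third was Itga9, an integrin alpha chain, for C1qa (r = 0.986), and Apoe, the lipid carrier of macrophages, for C1qb (0.987) and C1qc (0.980). These are descriptions over libraries that share 4 groups and the authors' normalization. In deviations from the group means the C1q genes still tracked each other at 0.98 to 0.99.

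C4b encodes complement C4, which C1-bound proteases cleave. It had 9.88, 10.79 and 10.59 in curcumin DiI-positive libraries and 6.54, 9.99 and 10.88 in empty DiI-positive libraries, against 8.17, 8.62 and 7.44 in curcumin DiI-negative and 7.50, 7.61 and 8.76 in empty DiI-negative libraries. After curcumin liposomes the fractions did not overlap, whereas empty DiI-positive replicate 1 was the lowest of all 12. The averaged difference of 1.76 ± 0.61 did not pass (limma adjusted p = 0.085), nor did those after curcumin (2.34 ± 0.86, adjusted p = 0.17) and empty liposomes (1.18 ± 0.86, adjusted p = 0.53). Without empty DiI-positive replicate 1 it was 2.41 averaged (adjusted p = 0.0017) and 2.48 after empty liposomes (adjusted p = 0.031). Its near-identical neighbour C4a was listed between 0.65 and 0.72, and since reads can fall to either copy, the split between them is uncertain.

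C3 had the opposite direction to C1q. It had 12.34, 12.13 and 12.71 in curcumin DiI-positive and 12.40, 12.08 and 12.61 in empty DiI-positive libraries, against 13.21, 13.21 and 12.16 in curcumin DiI-negative and 12.93, 13.20 and 13.26 in empty DiI-negative libraries. The fractions did not overlap after empty liposomes, and curcumin DiI-negative replicate 3 alone fell among the DiI-positive values. The averaged difference was -0.62 ± 0.19 and missed the threshold (limma adjusted p = 0.052); it was -0.77 ± 0.26 after empty (adjusted p = 0.15) and -0.47 ± 0.26 after curcumin liposomes (adjusted p = 0.38). The averaged difference passed without curcumin DiI-negative replicate 3 (-0.79, adjusted p = 0.0042) or curcumin DiI-positive replicate 3 (-0.70, adjusted p = 0.032). Leaving out both curcumin replicate 3 libraries was an alternative chosen after seeing the data, and it removes the DiI-negative library that fell among the DiI-positive values. C3 was then lower in DiI-positive cells on average (-0.87, limma adjusted p = 0.0011), after empty (adjusted p = 0.016) and after curcumin liposomes (-0.98, adjusted p = 0.013). The excess of C1qb over C3 within a library was 2.65 ± 0.43 in curcumin DiI-positive and 2.53 ± 0.33 in empty DiI-positive libraries, against 0.44 ± 0.36 in curcumin DiI-negative and 0.63 ± 0.28 in empty DiI-negative libraries (log2 ± SD, n = 3 each).

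Cfp, which encodes properdin (chromosome X, 20925454 to 20931555), was the other component higher in DiI-positive cells. Its values were 13.86, 14.12 and 14.71 in curcumin DiI-positive and 13.84, 13.78 and 14.74 in empty DiI-positive libraries. They were 13.30, 13.32 and 13.53 in curcumin DiI-negative and 13.47, 13.23 and 13.37 in empty DiI-negative libraries. The DiI-negative libraries lay within a narrow band below every DiI-positive library, and replicate 3 was the highest DiI-positive library after either liposome. The averaged difference was 0.80 ± 0.18 (1.75-fold, limma adjusted p = 0.014). It was 0.84 ± 0.25 after curcumin (adjusted p = 0.096) and 0.76 ± 0.25 after empty liposomes (adjusted p = 0.13), neither of which passed. The averaged call held without each library in turn, with adjusted p of at most 0.039. The Cfp pattern was most like those of the endocytic adaptor Itsn1 (r = 0.957), the actin cross-linker Actn1 (0.953) and the scavenger receptor Marco (0.953) over the 12 libraries. In deviations from the group means Cfp had correlations of only 0.13 to 0.23 with the C1q genes (n = 12).

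Cfb, which encodes factor B (chromosome 17, 34856374 to 34862518), was under the filter on low values and was not tested. Group means were 3.52 ± 0.06 in curcumin DiI-positive, 3.52 ± 0.03 in empty DiI-positive, 3.50 ± 0.03 in curcumin DiI-negative and 3.49 ± 0.03 in empty DiI-negative libraries (SD, n = 3 each). All 12 lay within 0.13 of each other. At such low values this narrow range may depend on the unstated transform and does not show steady expression. Cfb shares 2246 of its 2825 exonic bases with the overlapping gene Gm20547, which was listed at 0 in every library. The assignment of reads in the shared part is therefore uncertain.

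C3ar1, the receptor for C3a, was higher in DiI-positive cells. It had 11.94, 12.28 and 11.53 in curcumin DiI-positive and 12.20, 12.15 and 12.84 in empty DiI-positive libraries, against 10.99, 11.64 and 10.21 in curcumin DiI-negative and 11.04, 11.56 and 11.92 in empty DiI-negative libraries. The 2 fractions separated fully after empty liposomes but overlapped after curcumin. The averaged difference of 0.93 ± 0.25 passed (1.90-fold, limma adjusted p = 0.031), while 0.97 ± 0.35 after curcumin (adjusted p = 0.16) and 0.89 ± 0.35 after empty liposomes (adjusted p = 0.20) did not. Of the averaged calls among the 8 genes, it alone was not kept in every alternative run. It was lost with no filter on low values (adjusted p = 0.058) and when any one of 7 libraries was left out, namely curcumin DiI-positive replicate 1 or 2, empty DiI-positive replicate 3, curcumin DiI-negative replicate 1 or 3, and empty DiI-negative replicate 1 or 2, the adjusted p then lying between 0.052 and 0.076.

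C5ar1, the receptor for C5a, did not pass in any comparison of the fractions. It had 11.99, 12.001 and 12.23 in curcumin DiI-positive and 11.76, 12.004 and 12.25 in empty DiI-positive libraries, against 11.74, 12.03 and 10.90 in curcumin DiI-negative and 11.74, 12.19 and 12.14 in empty DiI-negative libraries. All values but that of curcumin DiI-negative replicate 3 lay within a span of less than 0.6. The averaged difference was 0.25 ± 0.17 with a 95% interval from -0.13 to 0.63 (limma adjusted p = 0.40), so an increase of the size found for C1q lies outside it. After curcumin liposomes the difference was 0.51 ± 0.25 (adjusted p = 0.30), which became 0.18 without curcumin DiI-negative replicate 3, and after empty liposomes it was -0.02 ± 0.25 (adjusted p = 0.98). Within a library, C3ar1 minus C5ar1 was -0.16 ± 0.50 in curcumin DiI-positive and 0.39 ± 0.23 in empty DiI-positive libraries, against -0.62 ± 0.19 in curcumin DiI-negative and -0.51 ± 0.26 in empty DiI-negative libraries (log2 ± SD, n = 3 each).

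**Figure D2:**
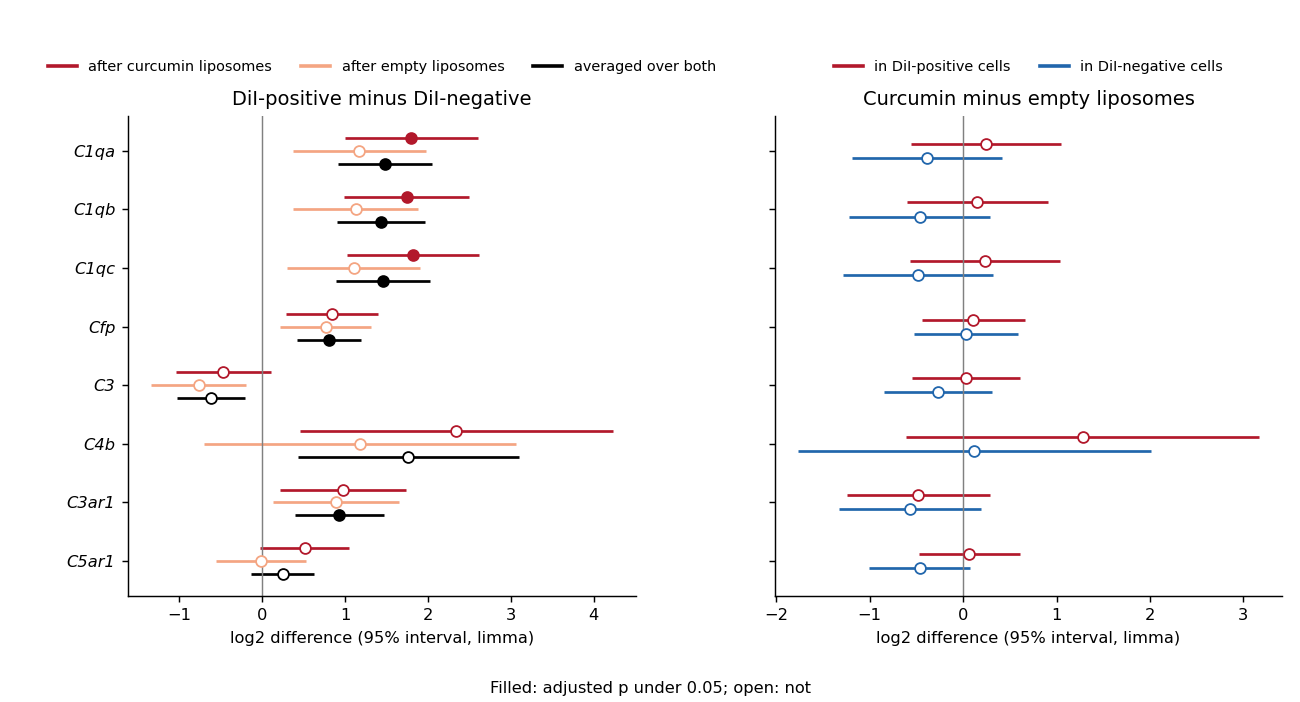
Log2 differences of the 8 genes tested, with 95% intervals from limma; left, DiI-positive minus DiI-negative cells after curcumin, after empty and averaged over both liposomes; right, curcumin minus empty liposomes in each fraction, with filled points at adjusted p under 0.05. The 3 C1q genes, Cfp and C3ar1 have filled points on the left and no gene has one on the right.

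Within each fraction, curcumin liposomes were set against empty ones to isolate the drug from its carrier, and no complement gene passed. In DiI-positive cells, 0 of 14227 genes passed at the adjusted threshold and 1165, or 8.19%, had an unadjusted limma p under 0.05, so 0 of the 8 stands beside a background of 0%. In DiI-negative cells the counts were 0 and 469, or 3.30%. Of the 8 genes, 0 had an unadjusted p under 0.05 in either fraction. For C1qb the difference was 0.15 ± 0.34 in DiI-positive cells (95% interval -0.60 to 0.91, limma adjusted p = 0.94) and -0.46 ± 0.34 in DiI-negative cells (-1.22 to 0.29, adjusted p = 1.00). For C3 it was 0.03 ± 0.26 (-0.54 to 0.60) in DiI-positive and -0.27 ± 0.26 (-0.84 to 0.31) in DiI-negative cells. The libraries of the 2 treatments did not separate for any of the 8 genes in either fraction, where 4.93% of all genes separated upwards and 5.09% downwards in DiI-positive cells and 11.2% in either direction in DiI-negative cells. Of the 22 other complement genes tested, 1 separated upwards and 1 downwards in each fraction, with C6 the upward one in both, though it did not pass. The largest difference among the 8 in DiI-positive cells was 1.28 ± 0.86 for C4b, with an interval from -0.61 to 3.17. It was -0.02 without empty DiI-positive replicate 1. For C3ar1 the difference was -0.48 ± 0.35 (-1.24 to 0.28) in DiI-positive cells and -0.57 ± 0.35 (-1.33 to 0.19) in DiI-negative cells. For C5ar1 it was 0.07 ± 0.25 (-0.47 to 0.61) in DiI-positive and -0.46 ± 0.25 (-1.002 to 0.08) in DiI-negative cells. Each of these intervals leaves room for a change in either direction, so a missed threshold does not show that curcumin left the genes unaltered.

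The difference between the fractions was larger after curcumin than after empty liposomes by 0.63 ± 0.52 for C1qa, 0.62 ± 0.49 for C1qb and 0.72 ± 0.52 for C1qc, with 95% intervals from -0.51 to 1.76, -0.45 to 1.68 and -0.41 to 1.85. None passed (limma adjusted p = 1.00 each), nor did any of the 8 genes or of all genes tested (0%; 527 genes, or 3.70%, had an unadjusted p under 0.05). The C1q calls after curcumin and their absence after empty liposomes are therefore not shown to differ. Without curcumin DiI-negative replicate 3 the 3 values were 0.24, 0.21 and 0.31.

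Of 44 other complement genes listed, 22 passed the filter, and in the averaged comparison 5 of these rose in DiI-positive cells and 2 fell, beside the 5.54% and 6.56% of all genes. Vsig4, a macrophage receptor for C3b and iC3b, showed the greatest change of the receptors, with 11.35 ± 0.98 in the DiI-positive libraries and 8.03 ± 0.51 in the DiI-negative ones (SD, n = 6 each; log2 difference 3.32 ± 0.35, limma adjusted p = 0.00032). C6, a component of the membrane attack complex, had 8.83 ± 1.65 in the DiI-positive libraries and 5.67 ± 0.37 in the DiI-negative ones (3.16 ± 0.50, adjusted p = 0.0026). Fcna, a ficolin that starts the lectin pathway, had 10.53 ± 1.10 in the DiI-positive and 7.57 ± 0.69 in the DiI-negative ones (2.96 ± 0.44, adjusted p = 0.0019). Each of these 3 had its lowest DiI-positive value in empty DiI-positive replicate 1, at 9.52 for Vsig4, 5.65 for C6 and 8.54 for Fcna. Cd55, the membrane inhibitor decay-accelerating factor (1.36 ± 0.18, adjusted p = 0.00091), and Cr2, the receptor for C3d on B cells (1.04 ± 0.19, adjusted p = 0.0060), also rose. Itgam, the alpha chain of complement receptor 3, fell by 0.54 (adjusted p = 0.0066).

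C1qbp, a mitochondrial protein that binds C1q, fell by 0.28 (limma adjusted p = 0.047), a call lost when any one of 9 libraries was left out and under 5 other settings, with adjusted p of up to 0.11. The 6 other calls passed without each library in turn. Genes that did not pass include the initiator proteases Masp2 (0.39 ± 0.13) and C1ra (0.25 ± 0.15), the regulators Cd46 (0.27 ± 0.09) and Cr1l (0.25 ± 0.09) and the second C5a receptor C5ar2 (0.19 ± 0.21). The beta chain of complement receptors 3 and 4, Itgb2, was at -0.21 ± 0.08 (adjusted p = 0.10), and Itgax, which encodes the CD11c used in the sort, at -0.53 ± 0.17 (adjusted p = 0.075). By role, 1 of 3 lectin pathway genes, 1 of 2 terminal components, 1 of 4 membrane inhibitors and 2 of 8 other receptors rose, 2 of 8 receptors fell, and 0 of 2 classical pathway genes and 0 of 3 soluble regulators passed. Other genes that did not pass had differences from -0.25 for the chaperone clusterin (Clu) to 0.34 for Cd93; between them lay C8g, Masp1, vitronectin (Vtn), C2 and Cd59a. Cfd, the factor D of the alternative pathway, was under the filter.

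**Figure D3:**
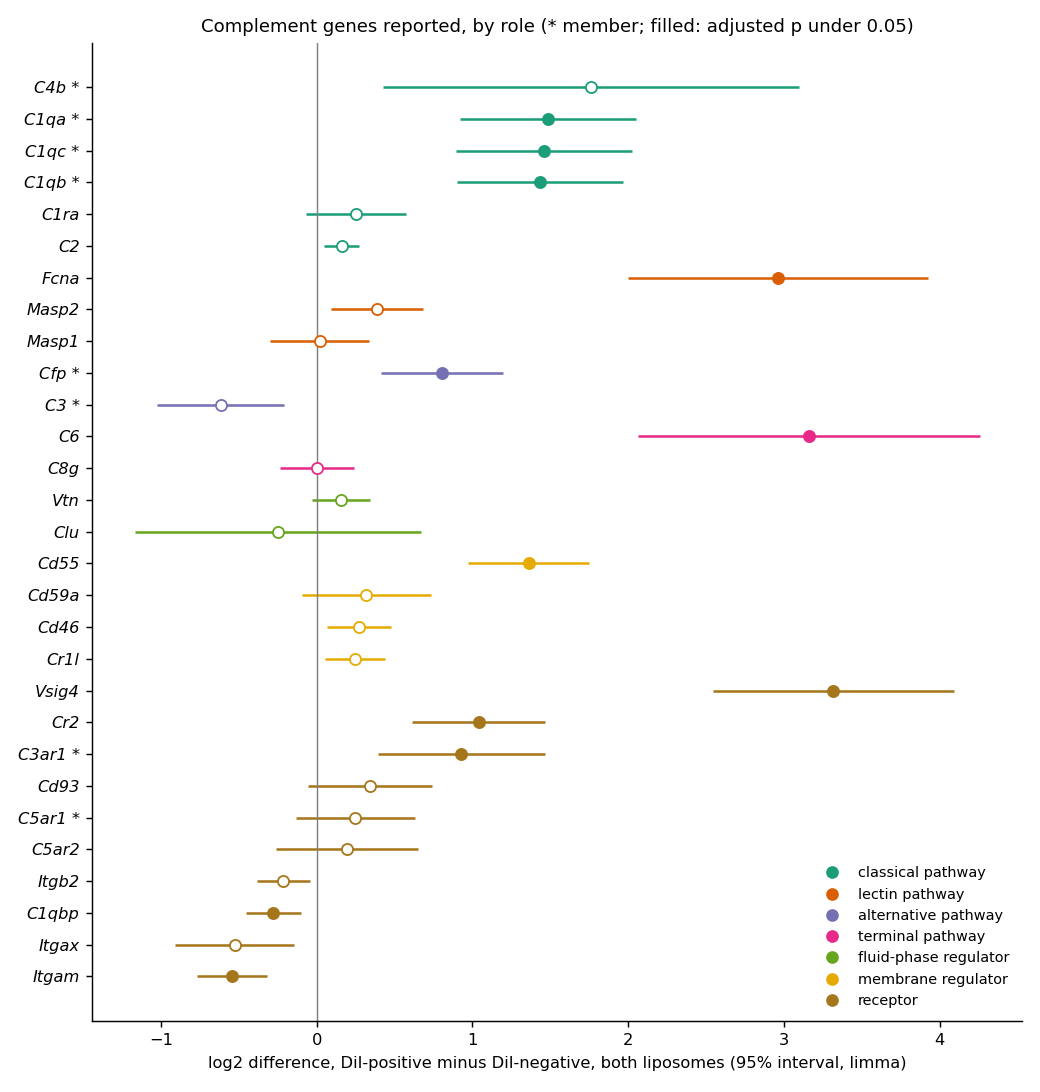
Log2 difference between DiI-positive and DiI-negative cells, averaged over both liposomes, for the complement genes tested and reported here, grouped and coloured by role, with 95% intervals from limma; an asterisk marks the 9-gene set and filled points have adjusted p under 0.05. Vsig4 (3.32), C6 (3.16) and Fcna (2.96) lie farthest to the right, and C3 (-0.62) farthest to the left.

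Markers of other cell types, in lists also chosen with earlier results of these data known, moved between the same fractions. In the averaged comparison 8 of 10 Kupffer cell markers were higher in DiI-positive cells, led by Clec4f (4.52 ± 0.40), Marco (4.05 ± 0.54) and Cd5l (3.31 ± 0.35). Their summed level was 16.27 to 17.26 in curcumin DiI-positive and 15.83 to 17.00 in empty DiI-positive libraries, against 14.89 to 15.11 in curcumin DiI-negative and 14.84 to 15.12 in empty DiI-negative libraries. Of macrophage markers 3 of 6 were higher, namely Mertk (1.53 ± 0.23), Apoe (1.18 ± 0.20) and Maf (0.80 ± 0.21). The macrophage sum was 18.69 to 18.83 in curcumin DiI-positive and 18.42 to 18.70 in empty DiI-positive libraries, against 16.99 to 18.20 in curcumin DiI-negative and 17.61 to 18.02 in empty DiI-negative libraries. Since linear levels are added, this sum is carried mostly by Apoe (mean log2 17.71). All 6 monocyte markers were lower, their sum being 14.73 to 14.96 in DiI-positive and 15.33 to 16.05 in DiI-negative libraries. All 8 B cell markers were higher, their sum being 16.46 to 17.60 in DiI-positive and 15.80 to 16.35 in DiI-negative libraries. Of hepatocyte markers 1 of 7 tested was higher, Ahsg at 0.61, and their sum was 9.34 to 10.62 in DiI-positive and 8.95 to 9.72 in DiI-negative libraries. Of the other lists, 6 of 8 T and NK cell markers and 3 of 6 type 2 dendritic cell markers were lower. Of sinusoidal endothelial markers 2 of 6 were higher. Of type 1 dendritic cell markers 1 of 7 was higher, and it alone had a difference above 0, the median of that list being -0.35. Mature dendritic cells had 1 of 5 in each direction, and 0 of 6 neutrophil and 0 of 5 plasmacytoid dendritic cell markers passed. The part of these markers in the complement differences was not tested.

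**Figure D4:**
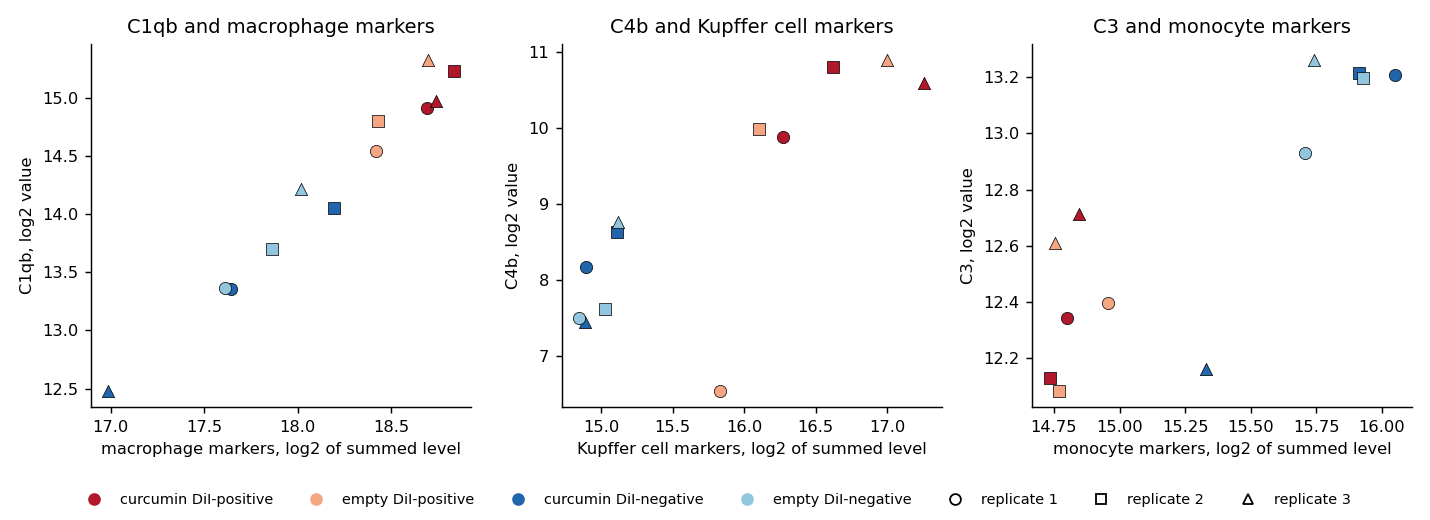
Log2 value of C1qb, C4b and C3 (vertical axes) against the log2 of the summed level of macrophage, Kupffer cell and monocyte markers (horizontal axes) in the 12 libraries, coloured by group with a symbol for each replicate. C1qb is higher in libraries with a higher macrophage sum, from 12.48 at a sum of 16.99 in curcumin DiI-negative replicate 3, C4b of empty DiI-positive replicate 1 (6.54) lies below the other libraries, and C3 is lower in the libraries with a low monocyte sum. The macrophage sum adds linear levels and is carried mostly by Apoe (mean log2 17.71), itself like C1qb (r = 0.987), so that panel largely sets C1qb against Apoe.

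Other genes had patterns close to those of the remaining members, as Pearson r over the 12 libraries, with the same groups behind the points. C3 was most like the immunoglobulin superfamily member Igsf6 (0.958) and the myeloid kinase Fgr (0.950). C4b was most like Sectm1a (0.933), the guanylate-binding protein Gbp2b (0.921) and the B cell chemokine Cxcl13 (0.918). C3ar1 was most like Irak3 (0.946), an inhibitor of Toll-like receptor signalling, Tesk1 (0.913) and Tmem106a (0.909), and C5ar1 was most like the endocytic receptor Lrp1 (0.916), Mpp1 (0.894) and the proton pump subunit Atp6v1b2 (0.894). C1qa and C3 correlated at -0.33 over the 12 libraries but at 0.67 in deviations from the group means, in which curcumin DiI-negative replicate 3 was the lowest library of its group for both.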

How the data were processed

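Sorted liver cells gave RNA for SMARTer Ultra Low Input cDNA and Nextera XT libraries, per the labels' protocols. The authors deposited gene-level log2 values, 1 column for each of 12 libraries (24 sample records, 2 to a library code), which were used as deposited. STAR 2.4.0d, DESeq2 1.8.1 and the GRCm38 build were used, per the submitters' processing notes. Which counter, annotation and transform were applied is not stated. The values range from -3.62 to 19.37, and folds of low genes depend on that transform. Read numbers are not given in the values.

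Groups were read from the column codes (empty or curcumin liposome, DiI-positive or DiI-negative). Genes with a mean log2 of at least 4 (14227 of 24874 not at 0 everywhere) were fitted with limma 3.58.1 in R 4.3.3 over all 12 libraries (8 residual degrees of freedom, mean-variance trend). P-values were adjusted by Benjamini-Hochberg over all genes tested, with a threshold of 0.05, and the fit was tested on simulated data. Symbols and positions came from GENCODE, and upstream sequences from RefSeq (6 of 9 members).

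Named genes were the 9 members, other listed complement genes that passed or had large differences, the 3 genes most like each member, and up to 3 markers per list. The members and lists were chosen with earlier results of these data known. Over all pairs of groups, same-numbered libraries had correlated deviations from -0.11 to 0.33, so numbers were not treated as pairs in the main fit. Between the 2 fractions of a liposome these were all above 0, at 0.03 to 0.33 after curcumin and 0.004 to 0.08 after empty liposomes. If numbers mark fractions of the same animals, the main fit ignores that pairing. Pairing of the fractions within each liposome was not tested. Alternatives changed the filter, normalization, weights, block and libraries. For 2 genes that these rules name, values are not reported here.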

Additional observations from a re-analysis of the deposited data

How the results depend on the processing

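The averaged differences of C1qa, C1qb, C1qc and Cfp passed under every alternative run. The 419 genes called after empty liposomes became 263 with no filter, 789 with library weights, 666 without curcumin replicate 3 of both gates (an alternative chosen after seeing the data) and 85 to 263 without 1 library. The members called there, 0, became 1 with library weights (Cfp), 1 with only the 6 libraries compared (C3), 2 without both curcumin replicate 3 libraries (C1qb and C3) and 0 to 1 without 1 library. After curcumin liposomes the 437 genes became 248 with no filter, 40 with only the 6 libraries compared, 706 without both curcumin replicate 3 libraries and 114 to 1088 without 1 library. The 3 members called became 0 with only the 6 libraries compared, 2 without both curcumin replicate 3 libraries (C1qb, and C3 in the other direction, while C1qa and C1qc were lost) and 0 to 3 without 1 library. For the curcumin effect in DiI-positive cells the 0 genes became 3 without both curcumin replicate 3 libraries and 0 to 4 without 1 library, and the 0 for the difference of the differences became 1 and 0 to 2. In DiI-negative cells the count stayed at 0. The cause was not tested.

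Signs turned only for differences that had not passed. For the curcumin effect in DiI-positive cells, C3 was -0.0086 with library weights. Without both curcumin replicate 3 libraries Cfp was -0.13, C3 -0.13 and C5ar1 -0.012 in DiI-positive cells, and C1qa was 0.0070, Cfp -0.042 and C3 0.082 in DiI-negative cells. In the difference of the differences Cfp was then -0.086, C3 -0.21 and C3ar1 -0.087.

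With 1 library left out, C5ar1 ranged from -0.16 to 0.11 after empty liposomes. The curcumin effect in DiI-positive cells ranged from -0.0016 to 0.52 for C1qa, -0.021 to 0.37 for C1qb, -0.13 to 0.42 for Cfp, -0.13 to 0.16 for C3, -0.017 to 2.16 for C4b and -0.056 to 0.19 for C5ar1. In DiI-negative cells it ranged from -0.77 to 0.0070 for C1qa, -0.042 to 0.088 for Cfp, -0.44 to 0.082 for C3 and -0.15 to 0.52 for C4b. The difference of the differences ranged from -0.16 to 0.39 for Cfp, -0.052 to 0.47 for C3, -0.14 to 2.04 for C4b and -0.28 to 0.43 for C3ar1.

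C3 passed on average with a filter at 6 (adjusted p = 0.038) and after quantile normalization (0.049). Same-numbered libraries of the 2 fractions had correlated deviations of 0.03 to 0.33 after curcumin and 0.00 to 0.08 after empty liposomes. Libraries of the 2 fractions with different numbers had -0.24 to 0.20 after curcumin and -0.08 to 0.00 after empty liposomes. The block run joined curcumin and empty libraries of the same number. A fit pairing the fractions within each liposome was not run, so how it would change the calls is not known. With the replicate number as a block, Cfp also passed after curcumin (0.84, adjusted p = 0.045), making 4 members, and the call counts were 405 after empty and 407 after curcumin liposomes.

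With 3 libraries a group and no read numbers, the precision of low values such as those of Cfb is unknown.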
